A study of Mus musculus with 9 samples.

Results

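Mouse chromosome 2 was followed through 9 mammary tumours of Rb and p53 conditional mutant mice, as 72462 of the 963261 distinct probes on a 2-colour genome tiling array. Every probe that the deposited files place on chromosome 2 was taken, except 66 probes in the stretch chr2:77706709-77871634. The chromosome was picked because its ratios were low in these same arrays, so its level against the reference DNA is a description. A window count from a test of that contrast is printed once, beside its background, and nothing is read from it. DNA of each tumour (red, Cy5) was hybridised on 1 array with pooled tail DNA (green, Cy3) from mice without tumours. The stated aim of the series was to find changes shared by tumours deficient in Rb and p53.

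Both Ad-Cre tumours and all 7 MMTV-Cre tumours came from mice with floxed alleles of both genes (Rbf/f;p53f/f) on a mixed strain background, and the pool was of mixed background too. In the Ad-Cre transplant group (2 tumours) Cre was given with an adenovirus, labelled Ad-CMVcre. In the MMTV-Cre transplant group (5 tumours), and in the single parous and single nulliparous MMTV-Cre tumours, Cre was under the MMTV promoter, a promoter used in the mammary epithelium. The labels describe the tumours as independent, do not say what the transplanted material was, and give no age. Dyes were not swapped and no normal DNA was set against the pool, so the spread of normal DNA entered no comparison, and DNA ratios hold no marker with which to check the tissue.

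Array comparative genomic hybridisation reads DNA copy number as the ratio of 2 labelled genomes at each probe, so a lost chromosome lies below the rest of the genome along its whole length. Mouse chromosomes are acrocentric, with the centromere at the end where the numbering starts, and a missegregated mouse chromosome is gained or lost as a single arm. Cells without the pocket protein Rb and the genome guardian p53 are known for tolerating such missegregation. Chromosome 2 carries several genes of the spindle checkpoint and the mitotic kinases, whose products govern this step. It also carries the genes of a relative of Rb and of the best known target factor of Rb.

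Values are log2 ratios of tumour over pool, with the autosomal median of the array set to 0, so 0 is the middle of that tumour's own genome and not a known copy number. On this scale a tumour with 1 of 2 copies in every cell would be at -1 and a tumour with 3 of 4 copies at -0.42. A bulk ratio cannot tell fewer cells with a loss from a smaller loss per cell. Single probes carried a noise of 0.16 to 0.18 (log2), and with a median spacing of 1760 bp between probes the chromosome median is set by far more probes than that noise needs: odd and even probes gave medians within 0.0027 of each other in every tumour. The number of tumours, not of probes, limits the precision of every mean over tumours. A run of 4 probes on chromosome 11, the chromosome of Trp53 (p53), was found by searching these same arrays. The search asked for probes at least 0.5 (log2) below their flanks in at least 7 tumours, so low values there are no independent check. Whether the run lies in Trp53 was not determined. In 8 tumours the run kept 30.4% to 58.6% of the signal of its flanks. The library labelled MMTV-Cre transplant 2 kept 96.7% there and is named as such below.

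Chromosome 2 was low along its whole length in 2 of the 9 tumours and near the middle of the genome in 4. The chromosome median was -0.36 in Ad-Cre transplant 1 and 0.01 in Ad-Cre transplant 2. Among the MMTV-Cre transplants it was -0.10 in tumour 1, -0.05 in the library labelled MMTV-Cre transplant 2, -0.39 in tumour 3, -0.06 in tumour 4 and -0.11 in tumour 5. The parous tumour was at -0.02 and the nulliparous tumour at -0.16. So Ad-Cre transplant 1 and MMTV-Cre transplant 3 stood together at the bottom, the nulliparous tumour and MMTV-Cre transplants 5 and 1 lay between, and the other 4 tumours were between -0.06 and 0.01.

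As a share of the pool signal, chromosome 2 kept 78.1% in Ad-Cre transplant 1 and 76.2% in MMTV-Cre transplant 3. The nulliparous tumour kept 89.4%, MMTV-Cre transplants 5 and 1 kept 92.6% and 93.3%, and the remaining 4 tumours kept 95.8% to 100.8%. The mean log2 median over the tumours was -0.14 ± 0.14 (SD, n = 9), and -0.15 without the library labelled MMTV-Cre transplant 2. That mean lay near the 3 intermediate tumours, while 2 tumours lay far below it and 4 near 0.

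The low ratio came with the tumour channel and not with the pool channel. In the tumour channel alone, chromosome 2 was below the autosomes by a log2 difference of -0.33 in Ad-Cre transplant 1 and -0.39 in MMTV-Cre transplant 3. In the pool channel it was within 0.0054 of the autosomes on all 9 arrays. Probes below 0 made up 96.6% and 97.6% of chromosome 2 in these 2 tumours, 83.8% in the nulliparous tumour, 74.5% and 74.6% in MMTV-Cre transplants 5 and 1, and 47.3% in Ad-Cre transplant 2. The order of the tumours was nearly the same for the share of probes as for the median.

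**Figure D1:**
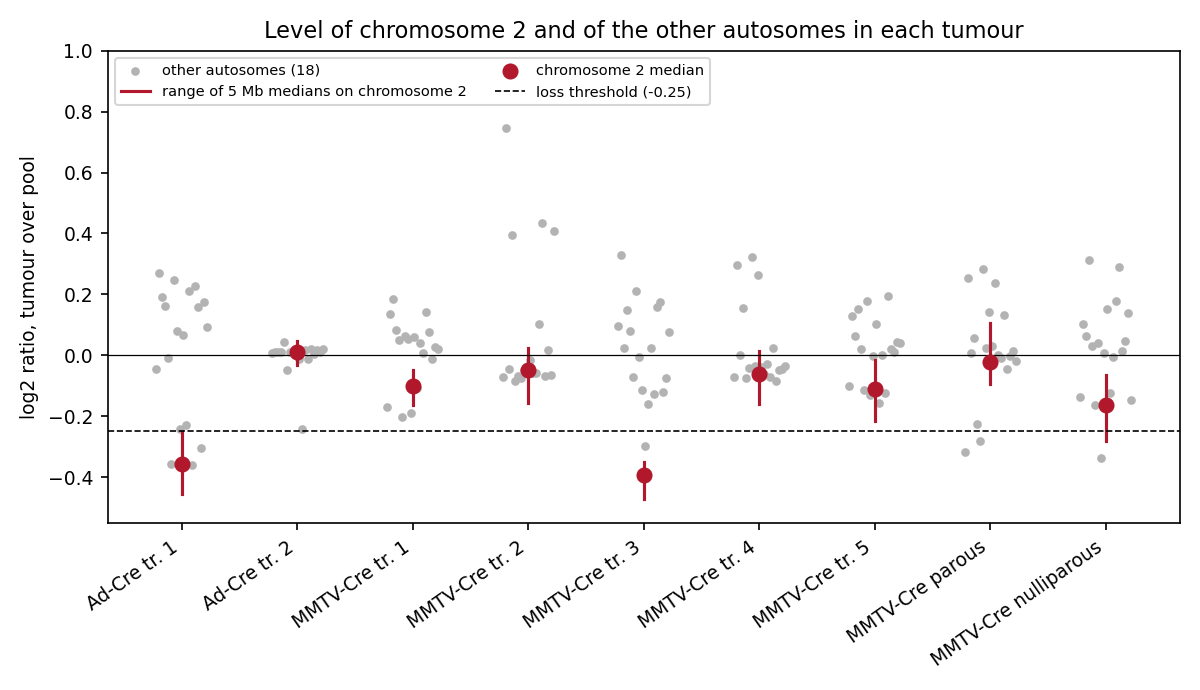
Median log2 ratio of tumour over pool (vertical axis) for chromosome 2 (large red points) and each of the other autosomes (grey points) in the 9 tumours, with the range of the 5 Mb medians along chromosome 2 as a red bar. Chromosome 2 sits below the dashed loss threshold of -0.25 in Ad-Cre transplant 1 and MMTV-Cre transplant 3, and lies among the other autosomes elsewhere.

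The zero line mattered for how deep the loss looked. The autosomal median need not be the most frequent level of a genome (the mode), and in Ad-Cre transplant 1 the mode was 0.20 above the median. Set against the mode, chromosome 2 was at -0.56 in Ad-Cre transplant 1, at -0.44 in MMTV-Cre transplant 3 and at -0.21 in the nulliparous tumour. MMTV-Cre transplant 1 was then at -0.14, MMTV-Cre transplant 5 at -0.05, and the other 4 tumours between -0.03 and 0.00. The shallow level of MMTV-Cre transplant 5 therefore depended on the choice of zero, whereas the pair with the deepest loss stayed the lowest under both.

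Set beside the other autosomes of the same tumour, chromosome 2 held different places. In MMTV-Cre transplant 3 it was the lowest of the 19 autosomes, and the next lowest, chromosome 11, was at -0.30. In Ad-Cre transplant 1 it was level with 2 other chromosomes, with -0.36 for each of chromosomes 2, 7 and 14. In the nulliparous tumour chromosomes 1, 7 and 19 lay within 0.03 of it. In MMTV-Cre transplant 5 chromosomes 1, 7, 9 and 14 did. MMTV-Cre transplant 1 had 1 such neighbour, chromosome 12. In Ad-Cre transplant 2, 15 of the 18 other autosomes lay within 0.03 of it, so chromosome 2 had the level shared by most of that genome. The shallow levels of the 3 intermediate tumours were thus levels that 1 to 4 other chromosomes of the same tumour also had.

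Chromosome 7 was the nearest to chromosome 2 in mean loss, yet the tumours concerned were not all the same. Ad-Cre transplant 1 was at -0.36 on both chromosomes. MMTV-Cre transplant 3 was at -0.39 on chromosome 2 and -0.07 on chromosome 7, and the parous tumour at -0.02 on chromosome 2 and -0.28 on chromosome 7. Chromosome 1, with its lowest value of -0.32 in the parous tumour, was at 0.10 in MMTV-Cre transplant 3. Chromosome 12 was at -0.24 in Ad-Cre transplant 2, the tumour in which chromosome 2 was at 0.01.

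Each chromosome was next divided into segments of constant level, and segments at -0.25 or less were called lost and at 0.25 or more gained. Lost segments covered 99.1% of the chromosome 2 length in Ad-Cre transplant 1 and 99.9% in MMTV-Cre transplant 3. They covered 12% in the nulliparous tumour, 0.048% of the length in the parous one, 0.0079% in MMTV-Cre transplant 1 and 0.0078% in MMTV-Cre transplant 4. No lost segment was called in Ad-Cre transplant 2, MMTV-Cre transplant 5 or the library labelled MMTV-Cre transplant 2. Gained segments made up at most 0.066% of the length in any tumour. The chromosome was therefore either lost nearly end to end or, at this threshold, hardly lost, with the nulliparous tumour between.

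The mean lost share was 23.5% ± 43.3 (SD, n = 9), and 26.4% without the library labelled MMTV-Cre transplant 2. It fell to 13.9% without MMTV-Cre transplant 3 and to 14.0% without Ad-Cre transplant 1. Among the 19 autosomes this mean stood level with the 23.4% of chromosome 7 and above the 13.8% of chromosome 14 and the 12.1% of chromosome 1. Chromosome 2 had more than 90% of its length lost in 2 tumours, whereas chromosomes 1, 7, 9 and 14 each had that in 1 tumour.

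The threshold decided how the intermediate tumours were counted. At -0.15 the lost share was 73.5% in the nulliparous tumour, 30.3% in MMTV-Cre transplant 5 and 19.1% in MMTV-Cre transplant 1, with 99.6% in Ad-Cre transplant 1 and 99.9% in MMTV-Cre transplant 3. At -0.4 it was 29.9% in Ad-Cre transplant 1, 50.6% in MMTV-Cre transplant 3 and 0.0089% in the nulliparous tumour. The whole-chromosome levels of the 2 deepest tumours lay close to -0.4, so that threshold cut through them. The mean over the tumours was 37.7% at -0.15 and 8.95% at -0.4. The nulliparous tumour moved with other choices too: its lost share at -0.25 was 43.0% with the mode as zero, 31.0% with the other autosomes as zero, 33.3% with normexp background correction, 6.32% after loess and 4.99% with a penalty factor of 20.

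**Figure D2:**
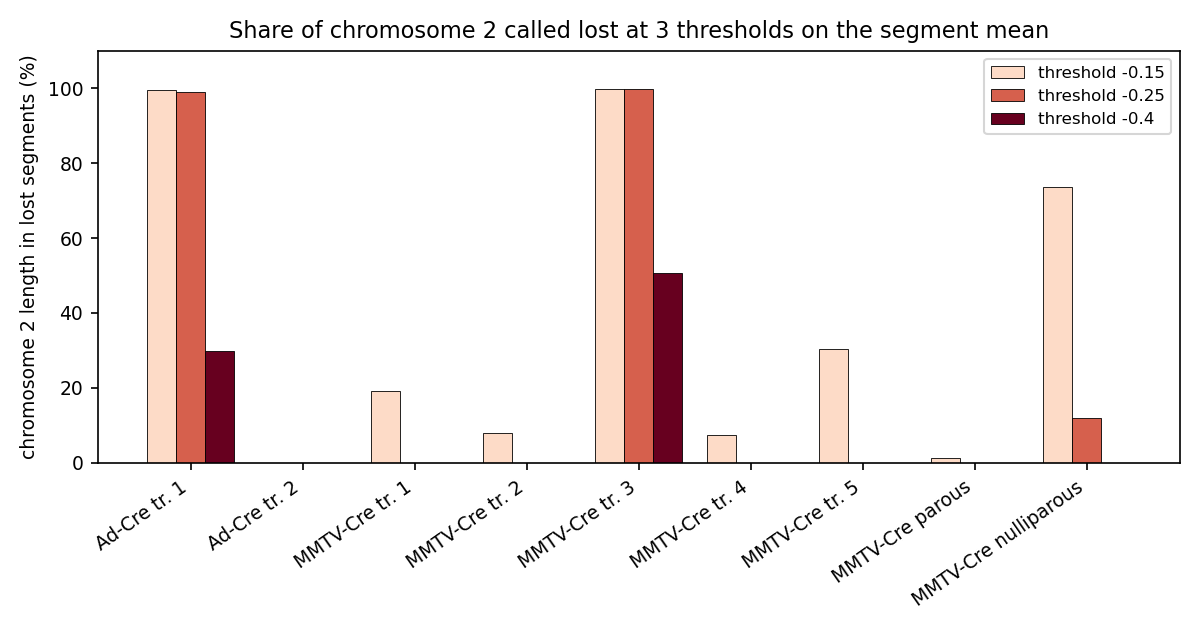
Share of the chromosome 2 length in lost segments (vertical axis, percent) for each tumour at 3 thresholds on the segment mean. At -0.25 the bars reach 99.1% in Ad-Cre transplant 1, 99.9% in MMTV-Cre transplant 3 and 12% in the nulliparous tumour, and at -0.15 MMTV-Cre transplants 5 and 1 rise to 30.3% and 19.1%.

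Along the chromosome, most tumours shared a pattern of dips and rises, and their levels were offset from each other as wholes. Medians over 37 stretches of 5 Mb had an SD of 0.048 in Ad-Cre transplant 1, 0.031 in MMTV-Cre transplant 3 and 0.053 in the nulliparous tumour, and of 0.019 in Ad-Cre transplant 2. Pearson correlations of these 5 Mb profiles over the 36 pairs of tumours ran between 0.143 and 0.988, with a median of 0.882. Over the 28 pairs without the parous tumour the lowest was 0.707. All profiles used the same probes and the same pool, and these correlations are given as a description.

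The dip at chr2:40000001-45000000 was the lowest 5 Mb stretch in 7 of the 9 tumours and lay below the tumour's own chromosome 2 median in 9 of 9. It was at -0.45 in Ad-Cre transplant 1 and -0.03 in Ad-Cre transplant 2. In MMTV-Cre transplants 1 to 5, in order, it was at -0.16, -0.16, -0.47, -0.16 and -0.21, the second being the library labelled MMTV-Cre transplant 2. The parous tumour was at -0.08 and the nulliparous tumour at -0.28. Ad-Cre transplant 2, whose chromosome 2 was at the middle of its genome, showed the same dip with a smaller depth.

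The level of the whole chromosome and the shared pattern were separated by subtracting from each array the median pattern of all 9, a step chosen after seeing the data. This subtraction would also remove a true partial loss if most tumours shared it. Afterwards the 5 Mb medians ran between -0.38 and -0.26 in Ad-Cre transplant 1 (SD 0.019), between -0.42 and -0.37 in MMTV-Cre transplant 3 (SD 0.012) and between -0.23 and -0.12 in the nulliparous tumour (SD 0.020). Chromosome 2 was then close to flat in these tumours. The pattern was taken from these same arrays, so a smaller SD in tumours that follow it is partly built into the step. In Ad-Cre transplant 2 the SD rose instead, from 0.019 to 0.024. The number of segments was 4 after and 20 before the subtraction in Ad-Cre transplant 1, 5 and 17 in MMTV-Cre transplant 3, and 10 and 26 in the nulliparous tumour.

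The pattern of the parous tumour was different, and subtraction left an SD of 0.038. Its distal stretches were its highest. The 5 Mb medians, as measured, were 0.04 in the parous tumour at chr2:160000001-165000000, then 0.07, 0.10 and 0.10 in the next 3 stretches, and 0.00 in the last. In MMTV-Cre transplant 3 the same 5 stretches were between -0.41 and -0.35, and in Ad-Cre transplant 1 between -0.36 and -0.28. None of the distal medians of the parous tumour reached the gain threshold of 0.25.

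**Figure D3:**
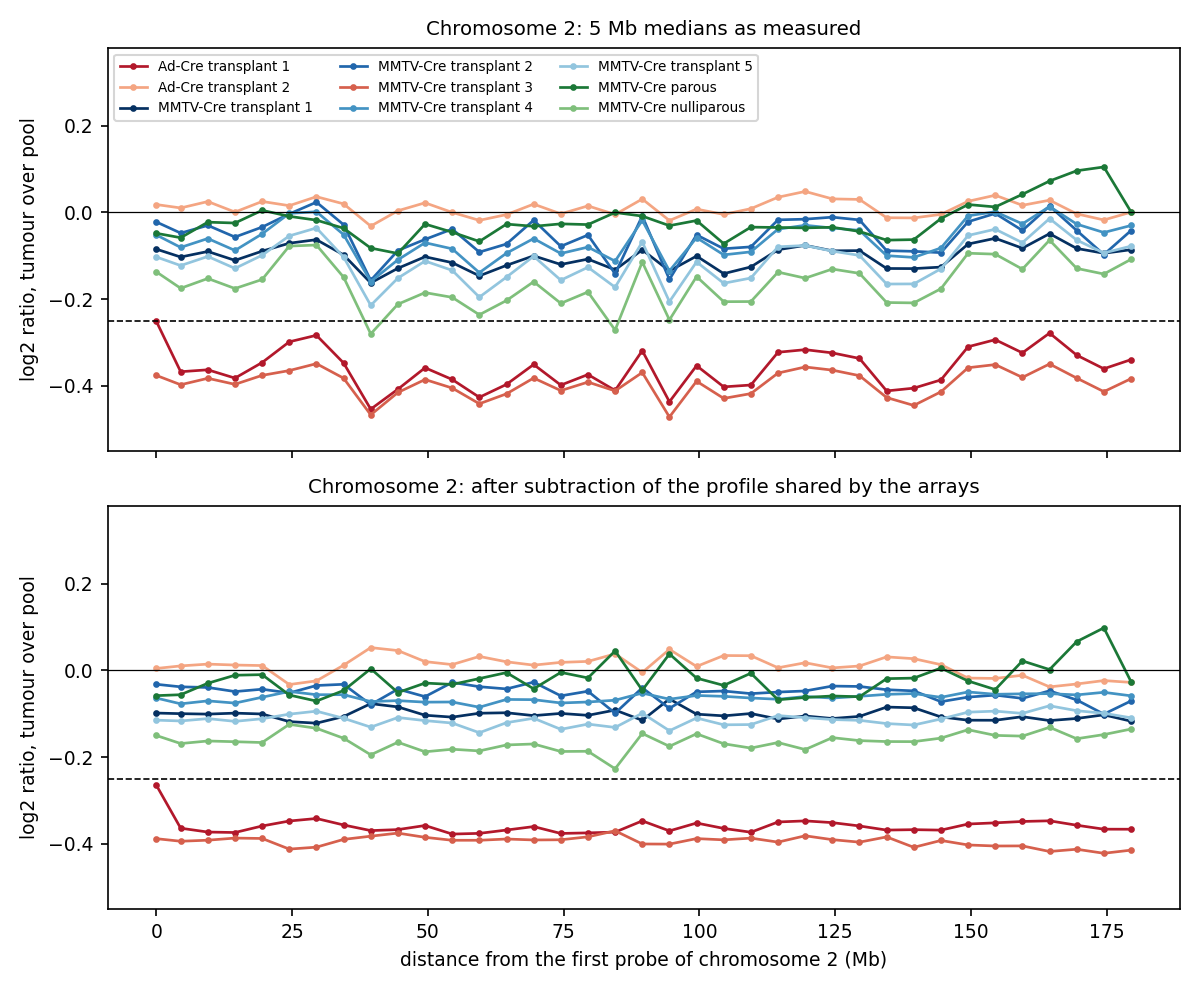
Log2 ratio of tumour over pool (vertical axes) in 5 Mb medians against the distance from the first probe of chromosome 2 in Mb, for the 9 tumours, as measured (upper panel) and after subtraction of the pattern shared by the arrays (lower panel). The dips of the upper panel recur at the same places in most tumours, less so in the parous tumour, while in the lower panel Ad-Cre transplant 1 and MMTV-Cre transplant 3 run nearly flat below -0.25 and the nulliparous tumour lies between -0.23 and -0.12.

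Smallest shared lost parts were sought by counting lost segments over 1749 windows of 100 kb. Of these, 1731 (99.0%) were lost in at least 2 tumours, where the same held for 16.8% of all autosomal windows. Loss in at least 3 tumours covered 216 windows (12.3%), against 2.61% of all autosomal windows. Loss in at least 4 covered 0 windows, against 0.103% of all autosomal windows. These autosomal shares include chromosome 2 itself. Recurrent loss was not particular to chromosome 2: of the 1286 windows of chromosome 7, 1224 were lost in at least 2 tumours, 296 in at least 3 and 23 in at least 4. Ad-Cre transplant 1 and MMTV-Cre transplant 3 together made up the count of 2, and the nulliparous tumour was the additional tumour in each run of 3.

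The 216 windows formed 5 runs, at chr2:39700001-44300000, chr2:61900001-68000000, chr2:85100001-89600000, chr2:95900001-99800000 and chr2:122500001-125000000. They held 46, 61, 45, 39 and 25 windows. In the nulliparous tumour the mean level of the runs was -0.32, -0.28, -0.29, -0.29 and -0.26, in that order, on a chromosome whose median was -0.16. Each run was thus only just past the threshold in that tumour.

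The first run shows what the other tumours did there. Its mean was -0.47 in Ad-Cre transplant 1, -0.49 in MMTV-Cre transplant 3 and -0.24 in MMTV-Cre transplant 5. The run averaged -0.17 in MMTV-Cre transplant 1, -0.20 in MMTV-Cre transplant 4, -0.20 for the library labelled MMTV-Cre transplant 2, -0.09 in the parous tumour and -0.04 in Ad-Cre transplant 2. All 9 tumours were lower in this run than on chromosome 2 as a whole. After subtraction of the shared pattern, 2 windows were lost in 3 or more tumours, chr2:97800001-97900000 and chr2:181600001-181700000, and the lost share of the nulliparous tumour was 0.119%.

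At chr2:97800001-97900000 the window mean was -0.56 in Ad-Cre transplant 1, -0.57 in MMTV-Cre transplant 3 and -0.70 in the nulliparous tumour. The other 6 tumours lay between -0.26 and -0.04. Relative to its own chromosome 2 median the nulliparous tumour was at -0.54 here and every other tumour between -0.20 and -0.06, so the depth of this window stood out in the nulliparous tumour alone of the 9. The other window, at the distal end, was at -0.29 in Ad-Cre transplant 1, -0.29 in MMTV-Cre transplant 3, 0.06 in the parous tumour and -0.06 in the nulliparous tumour as measured, and it became lost in 4 tumours solely through the subtraction.

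Breakpoints, counted as steps of 0.2 or more between neighbouring segments, numbered 45 over the 9 tumours. There was 1 in Ad-Cre transplant 1 and 1 in Ad-Cre transplant 2. MMTV-Cre transplants 1, 3, 4 and 5 had 9, 4, 5 and 5, and the library labelled MMTV-Cre transplant 2 had 7. The parous tumour had 11 and the nulliparous tumour 2. Per 100 Mb and tumour this came to 2.80, the 16th highest density of the 19 autosomes, so chromosome 2 combined a large mean lost share with few steps.

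Of the 45 breakpoints, 43 bordered a segment shorter than 1 Mb and 32 a segment shorter than 100 kb. The 2 between longer segments were in the parous tumour, where the mean was -0.08 to the right of chr2:37185859-37187032 and 0.14 to its left, and on the array of the library labelled MMTV-Cre transplant 2, where it was -0.22 to the right of chr2:39680964-39686132 and -0.02 to its left. The position in this library is the border of the dip that all tumours shared. No tumour had a breakpoint that divided chromosome 2 into a long lost part and a long retained part.

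Ad-Cre transplant 1 kept the end where the numbering starts. From chr2:3007974 to 3643224 (635 kb, 305 probes) its mean was 0.13, and from 3644269 onward the next segment was at -0.38, a step of -0.51. The other 8 tumours were between -0.42 and -0.02 in that stretch, that is -0.06 to -0.02 from their own chromosome 2 medians, whereas Ad-Cre transplant 1 lay 0.49 above its own. This was the single breakpoint on chromosome 2 in that tumour, and it was in the same place with the shared pattern subtracted.

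MMTV-Cre transplant 3 had 1 stretch above the loss threshold, chr2:122205409-122398397 (193 kb, 55 probes), at 0.01. Relative to their own chromosome 2 medians all 9 tumours were higher there, by 0.40 in MMTV-Cre transplant 3, 0.35 and 0.36 in Ad-Cre transplants 1 and 2, and 0.01 to 0.41 in the remaining 6. The stretch was higher in tumours with and without the chromosome loss. A longer stretch, chr2:71118540-72057029 (938 kb, 495 probes), lay above the tumour's own median in 8 of 9, by up to 0.24 in the library labelled MMTV-Cre transplant 2, with the parous tumour at -0.02.

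Some of the other steps bordered short loci with large ratios. Segments up to 10 Mb long with a mean of 1 and above, or -1 and below, were called 9 times, 2 high and 7 low, at 5 loci of 14.2 to 59.0 kb. Each of these segments held 10 probes, the smallest number that the segmentation allows, and the calls depended on its settings. The parous tumour had 0% of its length lost with bins of 10 probes and 0.032% with a penalty factor of 20. With normexp the lost share of MMTV-Cre transplant 1 was 0%. Over the 9 arrays the pool signal of the 5 loci was between 0.78 and 1.03 of its autosomal median. Over the narrower segment called in the nulliparous tumour, chr2:156382715-156398532, it was lower, at 0.46 of that median.

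The locus chr2:58008510-58025898 (17.4 kb, 12 probes) carried the lowest values of the chromosome among these loci. Its mean was -1.40 in MMTV-Cre transplant 1, -1.81 in MMTV-Cre transplant 3 and -1.31 in MMTV-Cre transplant 4, the 3 tumours in which it was called. The other 6 tumours were between -0.55 and -0.11. In MMTV-Cre transplant 3 it lay 1.41 below a chromosome that was itself lost. The segments called in the 3 tumours covered the same short interval to within a few probes. Each held 10 probes, the smallest segment allowed, so their likeness does not show that the tumours shared breakpoints.

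The locus chr2:144841659-144900632 (59.0 kb, 10 probes) was high. It was called in MMTV-Cre transplants 1 and 4, at 1.12 and 1.20, and its mean was 0.96 in the parous tumour, 0.89 in Ad-Cre transplant 2, 0.75 in the nulliparous tumour and 0.61 for the library labelled MMTV-Cre transplant 2. The locus was at -0.27 in Ad-Cre transplant 1, -0.34 in MMTV-Cre transplant 3 and -0.15 in MMTV-Cre transplant 5. Relative to their own chromosome 2 medians these last 3 were at 0.09, 0.05 and -0.04, and the other 6 at 0.66 to 1.26. Both tumours with the whole-chromosome loss were among the 3 without the high ratio, and whether the 2 features are linked was not tested.

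Of the remaining 3 loci, 1 was low in both tumours that were not transplanted and 2 were low in the parous tumour. At chr2:156380103-156398532 (18.4 kb) the parous tumour was at -0.91 and the nulliparous tumour at -1.11, while the 7 transplants lay between -0.33 and 0.16, without overlap. At chr2:107574065-107630548 (56.5 kb) the parous tumour was at -1.45 and the other 8 between -0.58 and -0.13. At chr2:131166644-131180873 (14.2 kb) it was at -1.08 and the other 8 between -0.35 and -0.02. The nulliparous tumour lay within the range of the transplants at both of these loci. Each of these loci was described because it was extreme, so the separation between tumours there has no test. Strain differences within the mixed background were not examined.

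**Figure D4:**
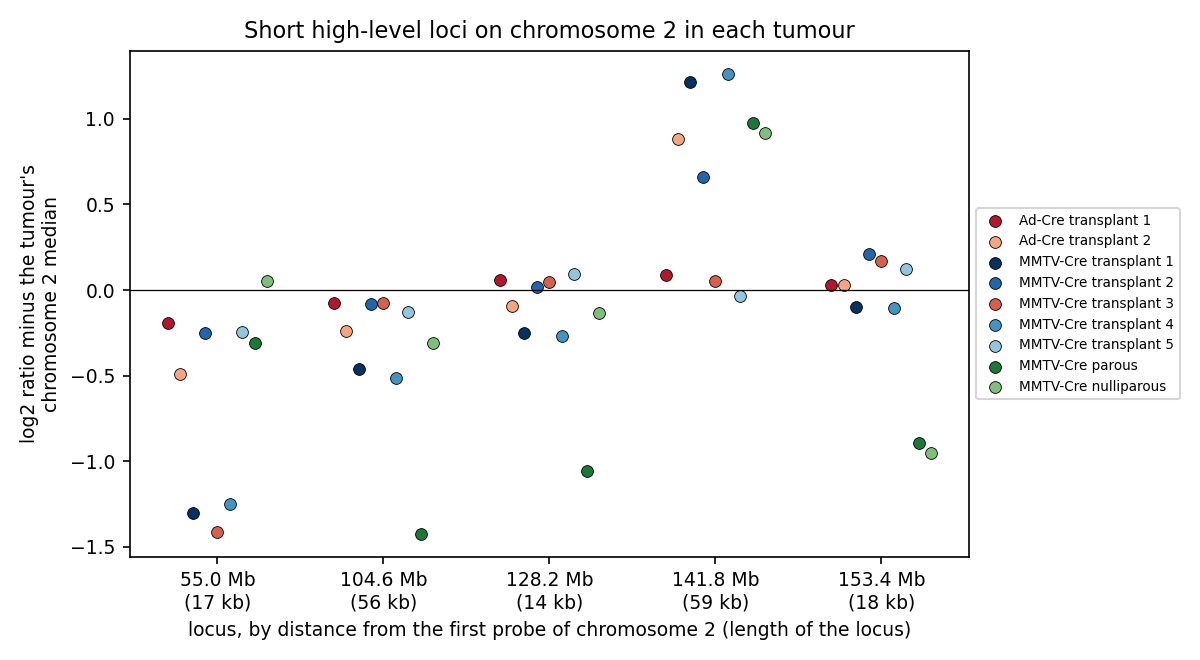
Log2 ratio minus the tumour's own chromosome 2 median (vertical axis) at the 5 short loci with large ratios, ordered along the chromosome by their distance from its first probe, 1 point per tumour. At the locus of 59.0 kb 6 tumours lie at 0.66 to 1.26 and Ad-Cre transplant 1, MMTV-Cre transplant 3 and MMTV-Cre transplant 5 lie near 0.

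The most extreme single windows departed from the chromosome level, some in all tumours alike and others in only part of the tumours. The lowest mean over the tumours was in chr2:47100001-47200000, at -0.37 ± 0.16 (SD, n = 9), with all 9 tumours below 0. Relative to their own chromosome 2 medians the tumours spanned -0.30 to -0.17 there, Ad-Cre transplant 2 included at -0.17. Next came the windows starting at 58000001, which holds the short low locus, and at 82500001, with -0.36 ± 0.28 (-0.21 with normexp) and -0.33 ± 0.17. The highest mean was in the window starting at 144800001, which overlaps the short high locus, at 0.33 ± 0.47, where the SD over the tumours exceeded the mean. With normexp that mean was 0.088, and with no spots left out, neither dim ones nor flagged outliers, 0.57. The window starting at 3900001 followed with 0.17 ± 0.22, or 0.073 with normexp. Relative to their own medians all 7 transplants were at 0.32 to 0.46 there, against 0.06 in the parous tumour and -0.05 in the nulliparous tumour. The window was named because its mean was among the highest of 1749, so this separation has no test.

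Limma with Benjamini-Hochberg adjustment, fitted to all 24789 windows of the autosomes and X, called 1089 of the 1749 chromosome 2 windows lower in tumours than in the pool (62.3%) and 0 higher, against 17.3% lower over all windows. Since chromosome 2 was chosen on this contrast, nothing is read from the count. In 643 of the 1089 windows at most 2 tumours were at -0.25 or less. The median difference over the called windows was -0.19 (log2), with a median standard error of 0.049.

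Ad-Cre and MMTV-Cre tumours were compared next, a contrast that the choice of the chromosome did not use. Both Ad-Cre tumours were transplants, whereas the MMTV-Cre tumours were 5 transplants and the parous and nulliparous tumours. No MMTV-Cre transplant was scanned on the day of the Ad-Cre tumours. The test therefore does not separate Cre delivery from transplantation or scan day. The chromosome 2 median was -0.17 ± 0.26 in the Ad-Cre tumours (SD, n = 2) and -0.13 ± 0.12 in the MMTV-Cre tumours (SD, n = 7). The difference of -0.04 was smaller than either SD, and an exact two-sided permutation test over the 36 groupings gave p = 0.861, with 0.0278 as the smallest p that it allows. The Ad-Cre pair itself held one of the lowest and the highest chromosome 2 level of the series. Without Ad-Cre transplant 1 the difference was 0.14, and without the library labelled MMTV-Cre transplant 2 it was -0.03 (exact p = 0.929).

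By limma, 0 of the 1749 chromosome 2 windows and 0.0% of all windows differed between Ad-Cre and MMTV-Cre tumours after adjustment, with 2 chromosome 2 windows at an unadjusted p below 0.05. Both models were present on 1 of the 3 scan days recorded in the file headers, with 2 Ad-Cre and 2 MMTV-Cre tumours. On that day both Ad-Cre tumours were transplants and the MMTV-Cre tumours were the parous and nulliparous ones, so Cre delivery and transplantation cannot be told apart in the within-day values. Within that day the difference in chromosome median was -0.08 (exact permutation p = 1), and limma called 0 chromosome 2 windows, also 0 at an unadjusted p below 0.05. Over all 24789 windows it called 158, 37 higher and 121 lower, from only 2 tumours of each model, and nothing is read from that count.

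Transplanted and not transplanted MMTV-Cre tumours were compared in the same way. The chromosome 2 median was -0.14 ± 0.14 in the MMTV-Cre transplants (SD, n = 5) and -0.09 ± 0.10 in the parous and nulliparous tumours joined (SD, n = 2). The difference of -0.05 had an exact two-sided permutation p of 0.762 over 21 groupings, with 0.0476 as the smallest p that they allow. It was 0.012 when MMTV-Cre transplant 3 was left out, 0.019 when the parous tumour was, and -0.07 without the library labelled MMTV-Cre transplant 2. By limma, 0 chromosome 2 windows and 0.0% of all windows differed, with 1 chromosome 2 window at an unadjusted p below 0.05. No scan day held both kinds of MMTV-Cre tumour, so scan day and transplantation cannot be told apart in this comparison. With so few tumours a difference of the size of the loss itself could be missed in either contrast.

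The genes on chromosome 2 were taken from RefSeq's table for the build GRCm38.p6. The table places 3704 genes there, 1782 of them protein coding and 147 of them miRNA genes. The array files name no build, so genes were assigned to the chromosome and not to positions on it. The only value that can be given for a gene is therefore the level of the chromosome: 78.1% of the pool signal in Ad-Cre transplant 1, 76.2% in MMTV-Cre transplant 3 and 89.4% in the nulliparous tumour. Whether a listed gene lies in the 635 kb kept by Ad-Cre transplant 1 or the 193 kb stretch of MMTV-Cre transplant 3 was not determined. The lists below were drawn up with chromosome 2 in mind, so how many of their genes lie on it was set by that choice and shows no concentration there; of all protein coding genes in the table, 1782 of 21900 are on it.

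The mitosis and spindle checkpoint list held 8 genes of chromosome 2. Bub1, Bub1b and Knl1 encode kinetochore proteins that hold cells before anaphase until chromosomes are attached. Aurka encodes the kinase Aurora A, which builds the spindle poles, and Tpx2 its activator on the spindle. Ube2c encodes the ubiquitin-conjugating enzyme of the anaphase-promoting complex. Mastl and Cdc25b encode a kinase and a phosphatase that keep the mitotic cyclin-dependent kinase active. The Rb pathway list held 3: Rbl1, which encodes the Rb relative p107, E2f1, the factor that Rb restrains, and Mybl2, a cell-cycle transcription factor that is a target of E2F.

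The DNA replication and repair list held 4 genes of the chromosome and 2 that lie elsewhere. Among the 4 are Pcna, the sliding clamp of DNA polymerases, and Trp53bp1, which binds chromatin at double-strand breaks. The 13 listed genes of growth signalling include the tyrosine kinase genes Abl1 and Src, the receptor gene Notch1 and its ligand gene Jag1, and Ncoa3, a coactivator of steroid receptors. The 8 genes of growth restraint include Tsc1, which limits mTOR signalling, Ext2, a heparan sulphate polymerase gene, and Ptprj, a receptor phosphatase gene. The 5 mammary factors include Gata3 and Elf5, transcription factors of luminal and alveolar cells. Bcl2l11 and Bcl2l1, which encode the opposing apoptosis regulators Bim and Bcl-xL, and B2m, the light chain of MHC class I, complete the lists.

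No RNA or protein was measured in these samples, so expression of the listed genes was not examined.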

How the data were processed

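Tumour DNA and pooled tail DNA were co-hybridised on Agilent arrays of design 027414, 1 array for each of 9 tumours. Per the file headers, spots were read with Agilent Feature Extraction 10.5.1.1, and the deposited processed signals are background-subtracted and dye-normalised spot intensity values. The authors' deposited series table holds log10 ratios of red over green, which differed from the scanner ratios by at most 0.0050. The genome build is not given in the sources used here.

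For each probe the log2 ratio of the processed red to green signal was computed. Spots not well above background in the pool channel, or flagged as outliers, were left out (1597 to 2115 of 974016 spots per array). Ratios were centred on each array's autosomal median. Median signal over local background was 21.8 to 32.4 in the pool channel and 14.9 to 17.9 in the tumour channel. Autosomes were segmented by PELT on bins of 5 probes (penalty factor 10, at least 2 bins). Windows of 100 kb with at least 3 probes entered limma (version 3.58.1, R version 4.3.3) with an adjusted p threshold of 0.05, and chromosome medians of groups with exact permutation tests. P-values measure the spread between tumours. The steps were tested on simulated data with known shifts. Limma recovered 59% of shifts of -0.25 in all tumours against the pool. Between Ad-Cre and MMTV-Cre tumours it recovered 41% of shifts of -0.5 and 91% of shifts of -1. Between transplanted and not transplanted MMTV-Cre tumours these shares were 23% and 81%. A count of 0 windows in either contrast thus leaves room for differences of that size.

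The members, gene lists and tests were chosen with earlier results of these data known. Regions named were drawn from the runs of windows lost in the most tumours and from breakpoints bordering segments of 1 Mb or more. Short segments at 1 or more or -1 or less were also included. The 5 lowest and 5 highest windows (at most 1 per 10 Mb) were a further source. Not every breakpoint or window of these sets is described. Left out were, for example, the stretch chr2:89628185-89654128, at 0.96 in MMTV-Cre transplant 1, and the low window starting at 171700001 (mean -0.32). Runs in at least 3 tumours replaced those in at least 4, of which there were 0. Genes named are those of the lists that RefSeq places on chromosome 2. Alternatives were normexp background correction (offset 50), loess, other centrings, filters, segmentation and thresholds, the series table, scan day and each tumour left out. Removal of the shared pattern (running median of 11 windows) and the within-day fit were added after seeing the data. Without a genome of the files' build no sequence, GC content or gene position was used. Scripts ran under Python 3.11.15 with matplotlib 3.10.9, scipy 1.17.1, numba 0.67.0, pandas 2.3.3 and numpy 2.4.6.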

Additional observations from a re-analysis of the deposited data

Results flagged for a closer look

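Among the 5 MMTV-Cre transplants, tumour 3 lay apart from the others in 3 of the 8 quantities of chromosome 2 that were screened with Dixon's criterion, and chance alone sets about 1 group in 20 apart in this way. The 3 quantities are measures of the same loss and do not count as independent. Chromosome 2 was picked for its low ratios in these same arrays, MMTV-Cre transplant 3 included. The rate of 1 in 20 therefore does not hold for these quantities. The chromosome median log2 ratio was -0.39 in MMTV-Cre transplant 3 and between -0.11 and -0.05 in the other 4. The tumour channel of chromosome 2 lay below the autosomes by -0.39 in MMTV-Cre transplant 3, against -0.12 to -0.08 in the other 4. The lost share of the chromosome length was 99.9% in MMTV-Cre transplant 3 and at most 0.0079% in the other 4.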

How the results depend on the processing

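The mean chromosome 2 level kept its sign under every alternative run, between -0.16 and -0.13 (-0.16 to -0.11 with each tumour left out in turn), and the mean lost share was 8.95% to 37.7% (13.9% to 26.4% with each tumour left out, lowest without MMTV-Cre transplant 3 or Ad-Cre transplant 1). The breakpoint count of 45 became 17 with normexp and 245 with no spots left out, neither dim ones nor flagged outliers. It was 192 and 20 with penalty factors 5 and 20, and 20 with bins of 10 probes. The range with each tumour left out was 34 to 44. Windows lost in at least 4 tumours (0) numbered 1 with normexp, with bins of 10 probes and with the shared pattern removed, 13 with penalty factor 5 and 655 at a loss threshold of 0.15. Windows lost in at least 3 tumours (216) numbered 596 with normexp, 113 with loess, 769 centred on the mode, 555 centred on the other autosomes, 434 and 90 with penalty factors 5 and 20, 2 with the shared pattern removed, 1297 at a threshold of 0.15 and 0 at 0.4. They ranged from 0 to 216 with each tumour left out, with 0 without the nulliparous tumour, MMTV-Cre transplant 3 or Ad-Cre transplant 1. The cause of these changes was not tested, apart from the fewer tumours in the last. The Ad-Cre minus MMTV-Cre difference reversed to 0.14 without Ad-Cre transplant 1 (range -0.23 to 0.14), and the transplant minus not transplanted difference to 0.019 without the parous tumour and 0.012 without MMTV-Cre transplant 3 (range -0.12 to 0.019). Chromosome 2 windows called lower by limma numbered 749 to 1508 in windows of 100 kb, the highest with scan day as a random block, and 764 to 1179 with each tumour left out. Between Ad-Cre and MMTV-Cre tumours, and between transplanted and not transplanted tumours, 0 differed under every alternative run (0 to 10 and 0 to 15 at an unadjusted p below 0.05). Over all windows limma called 3628 higher and 4286 lower, 4613 and 2583 with normexp, and 2022 and 3789 centred on the mode. For single tumours and windows 246 of 250 alternative values moved by less than the spread between tumours. That limit was wide, so the count does not show that the values were stable. For the lost share the spread was an SD of 43.3 percentage points. The lost shares of 43.0% in the nulliparous tumour (mode as zero) and 30.3% in MMTV-Cre transplant 5 (threshold of 0.15) therefore counted as smaller moves. Under normexp the mean of 2 windows changed sign, to -0.026 (0.11 as reported) in the window starting at 50700001 and to -0.039 (0.083) in that at 122300001, and the window at 83700001 (0.10) was at 0.0032; with loess the first 2 were 0.16 and 0.13. No paired analysis was possible because replicate numbers only follow the order of deposit. No GC correction was run. A loss shallower than the shared pattern, or in few cells, would not be resolved by these segments.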
